A study of Arabidopsis thaliana with 9 samples.

Results

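Leaf RNA of homozygous ddm1 plants was compared with leaf RNA of F1 plants from the cross of Col-0 with ddm1, to describe which loci and pathways separate 2 mutant alleles of DDM1 from 1. The comparison used 6 of the 9 libraries of the series, chosen by their titles, with 3 from each genotype. It covered 33323 nuclear loci of the 33602 in the deposited tables, after 279 organelle loci were left out. The mutant plants are labelled ddm1(-/-) of the 2nd generation, and the F1 plants DDM1/ddm1. The labels call the 3 libraries of a genotype independent biological replicates of plants 4 to 5 weeks old, and give neither the name of the ddm1 allele nor the number of plants pooled. In an F1 plant 1 chromosome of each pair comes from Col-0 and 1 from the mutant parent, so that the number of mutant alleles and the parental origin of the chromosomes cannot be told apart in this comparison. The 3 wild-type Col-0 libraries entered the fit and are given as reference values.

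DDM1 is a chromatin remodelling ATPase that lets DNA methyltransferases reach nucleosomes containing linker histone H1. In its absence, CG and non-CG methylation is lost from the heterochromatin around the centromeres and the transposons there are transcribed, and the lost methylation is often inherited by offspring that carry a working allele. In the leaf, much of the rest of the transcriptome follows the day. The morning factors CCA1 and LHY repress genes of the evening through a short promoter motif called the evening element, and the evening genes in turn restrain the morning genes.

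The evening element, AAAATATCT, was searched on both strands in the 300 bases before the annotated start of each locus (RefSeq, TAIR10.1). The promoters of 2 clock genes that fell in ddm1, described further on, are printed here because they hold it, on the strand of the gene and with the element in capitals (AGATATTTT is the same element on the other strand). They are FKF1 at chr1:25508339-25508638 and TOC1 at chr5:24674663-24674962, both on the plus strand.
FKF1: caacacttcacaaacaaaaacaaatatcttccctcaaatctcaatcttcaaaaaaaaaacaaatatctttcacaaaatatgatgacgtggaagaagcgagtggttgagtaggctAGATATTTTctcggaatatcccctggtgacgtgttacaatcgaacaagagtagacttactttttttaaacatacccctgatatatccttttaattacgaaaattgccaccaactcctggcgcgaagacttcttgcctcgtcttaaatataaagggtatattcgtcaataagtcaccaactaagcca
TOC1: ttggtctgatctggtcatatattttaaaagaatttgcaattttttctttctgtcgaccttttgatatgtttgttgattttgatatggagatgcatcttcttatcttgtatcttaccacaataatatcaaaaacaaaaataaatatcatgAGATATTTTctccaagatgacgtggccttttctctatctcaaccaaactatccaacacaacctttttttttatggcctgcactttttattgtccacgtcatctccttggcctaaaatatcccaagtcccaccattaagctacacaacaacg

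The libraries held 15996773 to 22425675 estimated counts, of which 5212771 to 7574806 fell on nuclear loci. Organelle loci took 72.8, 71.4 and 70.6% of the counts in the F1 libraries and 66.2, 67.9 and 67.4% in the ddm1 libraries, ranges that do not overlap. Levels are given below as CPM, counts per 1000000 nuclear counts after TMM scaling, for replicates 1, 2 and 3 in that order. Library 3 stood apart in both genotypes: across tested loci, log2 CPM of F1 library 3 correlated with the other F1 libraries at 0.906 and 0.923 (0.950 between those), and ddm1 library 3 with the other ddm1 libraries at 0.865 and 0.874 (0.962 between those). The transcript of DDM1 (AT5G66750) could not serve as a check of the genotypes, with counts of 2, 0 and 8 in F1 and 1, 2 and 2 in ddm1. The leaf gene LHCB1.3 (3014, 4892 and 8211 CPM in F1, 4327, 6985 and 16302 in ddm1) was high in every library. The leaf markers LHCB1.1 and LHCB1.2 stood lower in F1, at 59, 76.6 and 97 and at 112, 277 and 458 CPM. In ddm1 they stood at 1482, 1875 and 7419 and at 1591, 1898 and 4176 CPM. The leaf marker RCA stood at 2762, 3314 and 3435 CPM in F1 and 14754, 12547 and 16542 in ddm1, and the leaf marker RBCS1A was not called. Of the markers of other organs, 7 of 9 seed genes and 4 of 6 root genes had 0 counts in all 6 libraries. The summed root markers stood at 28.7, 33.5 and 44.3 CPM in F1 and 51.1, 47.3 and 48.1 in ddm1. The summed flower and pollen markers stood at 4.25, 4.01 and 9.84 CPM in F1 and 22.2, 18.5 and 9.35 in ddm1. Their part in the results was not tested. In bulk leaf RNA, fewer cells of a type and less RNA per cell cannot be told apart.

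After the filter on low counts, 18045 nuclear loci were tested and 2998 (16.6%) differed between ddm1 and F1 at an adjusted p under 0.05. Of these, 1872 were higher in ddm1 (10.4% of the tested loci) and 1126 lower (6.24%). Transposable element (TE) genes made up a large share of the higher loci: of 1231 tested, 544 were higher (44.2%) and 8 lower (0.65%), 44.8% in all. Among 16814 tested non-TE loci the calls were spread over both directions, with 1328 higher (7.9%) and 1118 lower (6.65%). The numbers depended on the libraries used. Without F1 library 1 the 4 counts were 261 higher and 5 lower TE genes and 434 higher and 258 lower non-TE loci, and without F1 library 2 they were 311, 6, 523 and 297. Without ddm1 library 1 they were 292, 5, 728 and 357, without ddm1 library 2 they were 289, 7, 861 and 429, and without ddm1 library 3 they were 398, 5, 912 and 687.

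TE gene transcripts were more abundant in the homozygote as a class. They took 3.35, 3.15 and 3.61% of nuclear counts in the F1 libraries and 8.92, 9.28 and 9.4% in the ddm1 libraries. The 2 ranges lay far apart, with means of 3.37% ± 0.230 (SD, n = 3) and 9.20% ± 0.253 (n = 3), a 2.73-fold difference. The two-sided exact permutation test gave p = 0.1, the smallest that 3 libraries against 3 can give. Wild type stood at 0.255% ± 0.00669 (n = 3). The number of TE genes with a deposited TPM of 1 or more was 471, 477 and 594 in F1 and 966, 963 and 908 in ddm1 (exact permutation p = 0.1), which is 1.84-fold more, so that the number of TE genes over that level and the summed level were both higher. Of the 3881 TE genes, 2650 were too scarce to test, among them 1522 with 0 counts in all 6 libraries. Of the 1231 tested, 43 had 0 counts in all F1 libraries. These passed the filter through their ddm1 or wild-type counts and all 43 were called. Of all tested TE genes, 220 (17.9%, against 2.84% of all tested loci) were higher by more than 2-fold when the fold itself was tested with glmTreat, 67 to 276 with a library of F1 or ddm1 left out (73, 111, 67, 87 and 104 without F1 library 1, F1 library 2, ddm1 library 1, ddm1 library 2 and ddm1 library 3).

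**Figure D1:**
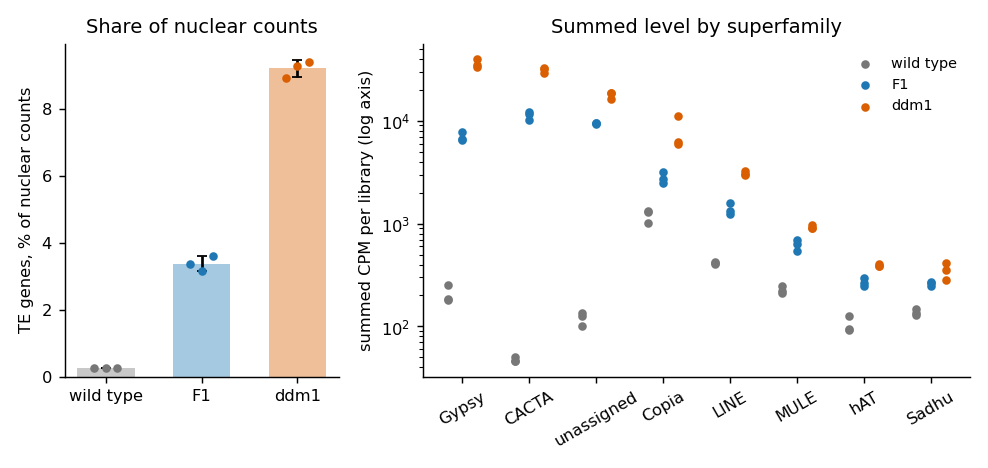
TE gene transcripts in 9 libraries. Left, the share of nuclear counts on TE genes (bars, mean; error bars, SD; points, libraries), with means of 3.37% for F1, 9.20% for ddm1 and 0.255% for wild type; right, CPM summed over the TE genes of each superfamily, 1 point per library on a log axis, where Gypsy elements show the widest gap between F1 and ddm1 (5.13-fold).

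The superfamilies differed in how far ddm1 exceeded F1. Gypsy elements, the long terminal repeat retrotransposons that fill much of the pericentromeres, had a summed level of 6657, 6520.000 and 7742 CPM in F1 and 34713, 32952 and 39727 CPM in ddm1, a 5.13-fold difference of the means. Of 431 tested Gypsy genes, 295 were higher in ddm1 (68.4%, against 44.2% of all tested TE genes) with a median of 8.59-fold, against 3.17-fold for all tested TE genes. Of the 43 TE genes that were silent in F1, 36 were Gypsy genes. These genes passed the filter only through ddm1 or wild-type counts and all were called. They are included in the Gypsy count and median, which are not given without them. Folds against 0 counts are lower bounds, set against a floor of 3 counts over the group, and these medians use those bounds.

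CACTA elements, DNA transposons that move by cut and paste, were already active in F1, with summed levels of 11568, 12180.000 and 10239 CPM in F1 and 29390.000, 32132 and 32503 CPM in ddm1. Their difference of 2.77-fold was smaller than that of Gypsy elements, and 73 of 159 tested CACTA genes were higher (45.9%), with a median of 2.45-fold. Copia retrotransposons had 45 of 171 higher (26.3%, median 2.28-fold) and LINE elements, retrotransposons without long terminal repeats, had 27 of 112 (24.1%, median 2.43-fold). The MULE and hAT DNA transposons had 11 of 59 and 1 of 23 higher, with medians of 2.32-fold and 1.61-fold. Sadhu retroelements, a small group of short non-autonomous elements, had 2 of 11 higher and 2 lower. The 265 tested TE genes without an assigned superfamily had 90 higher (34.0%, median 2.3-fold).

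**Figure D2:**
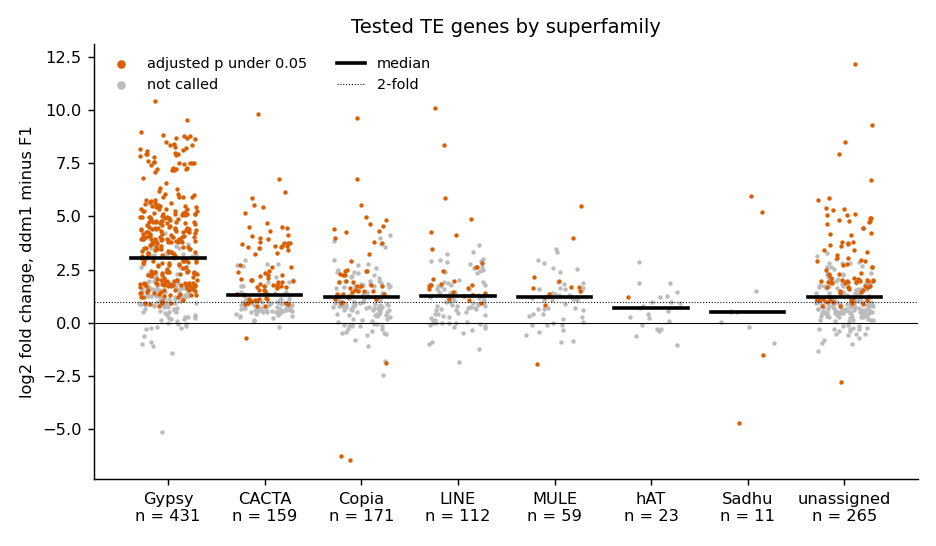
Log2 fold change of ddm1 over F1 for the 1231 tested TE genes by superfamily (points, genes; orange, adjusted p under 0.05; grey, not called; black bars, medians; dotted line, 2-fold). Most Gypsy genes lie above the 2-fold line, whereas the medians of CACTA, Copia, LINE, MULE and unassigned genes lie close to it.

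TE genes near the centromeres were called more often than those on the arms, and the median fold differed most between the 2 places in Gypsy genes. In the pericentromeres, taken as 2.5 Mb to either side of the densest TE window of each chromosome, 482 of 975 tested TE genes rose (49.4%), and 62 of 256 did so on the chromosome arms (24.2%). The places differed in their superfamilies, with 410 Gypsy genes among the 975 and 21 among the 256. By superfamily, 290 of 410 Gypsy genes rose in the pericentromeres and 5 of 21 on the arms. CACTA genes had 60 of 126 and 13 of 33 higher, and Copia genes 33 of 110 and 12 of 61. LINE elements went the other way, with 13 of 57 and 14 of 55. Unassigned genes differed little, with 74 of 216 and 16 of 49. Gypsy genes had a median of 8.99-fold in the pericentromeres (410 tested) and 2.3-fold on the arms (21 tested). CACTA genes had 2.21-fold in the pericentromeres and 2.53-fold on the arms, Copia genes 2.34-fold and 1.99-fold, and LINE elements 2.14-fold and 2.75-fold. Unassigned TE genes had the lower median in the pericentromeres, 2.2-fold (216 tested) against 3.38-fold on the arms (49 tested). These shares and medians are descriptions, and the difference between places was not tested. They include the 43 tested TE genes without F1 counts, all of which were called. Of these 43, 40 lay in the pericentromeres, 35 of them Gypsy genes. Reads of repeated elements may be shared between copies, and 696 of the 1231 tested TE genes (56.5%) had a near-identical copy, an alignment of at least 100 bases at 95% identity to another TE gene. Among those without one, 85 of 147 Gypsy genes (57.8%), 8 of 30 CACTA genes, 22 of 94 Copia genes and 20 of 86 LINE genes were higher.

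The 8 TE genes with the largest fitted increase all had 0 counts in the 3 F1 libraries. They entered the test through their ddm1 counts, and all 43 tested TE genes without F1 counts were called. Their adjusted p-values are therefore no separate support. AT1G35650, an element of no assigned superfamily on chromosome 1 (13187285 to 13191749, minus strand), stood at 126, 118 and 34.4 CPM in ddm1 and was at least 545-fold higher (adjusted p = 0.00283). The Gypsy gene AT1G40119 stood at 40.4, 33 and 9.78 CPM (at least 163-fold, adjusted p = 0.0078), and the CACTA gene AT2G12305 at 16, 16.8 and 21.5 CPM (at least 106-fold, adjusted p = 0.00286). In the first pair library 3 was the lowest of the ddm1 libraries, and in the CACTA gene it was the highest. AT5G38365, a LINE element on chromosome 5 (15334173 to 15339896, plus strand) with no near-identical copy, stood at 26.1, 23.3 and 16.5 CPM and was at least 129-fold higher (adjusted p = 0.00274). The others were the Copia gene AT4G06628, the Gypsy genes AT5G31804 and AT2G12780 and the unassigned AT5G34900, at least 58.9-fold to 94-fold higher. Wild type had 0 counts of these 8 genes, apart from 4 counts of AT1G35650 and 1 count of AT4G06628 in library 3.

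The TE genes with the highest CPM in ddm1, a scale not corrected for length, did not behave alike. The CACTA gene AT2G06740 on chromosome 2 (2681659 to 2685131, minus strand) went from 105, 171 and 155 CPM in F1 to 1988, 1865 and 2028 CPM in ddm1, with no overlap of the groups, and was 13.6-fold higher (log2 change 3.77 ± 0.35 SE, adjusted p = 0.000903). AT1G36630, also CACTA, had 1913, 2017 and 545 CPM in F1 and 1623, 1667 and 1941 CPM in ddm1. The F1 values spanned the ddm1 range, and the log2 fold change of 0.23 was not called (± 0.52 SE, adjusted p = 0.799). AT3G30393, with 24, 428 and 322 CPM in F1 and 1726, 1886 and 1608 CPM in ddm1, was just outside the threshold (log2 change 2.75 ± 0.83 SE, adjusted p = 0.0507).

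AT3G45520, a Copia gene on chromosome 3 (16692706 to 16696797, minus strand), stood at 64.9, 117 and 178 CPM in F1 and 507, 642 and 5737 CPM in ddm1. The value of ddm1 library 3 was far above the other libraries, though the 2 groups did not overlap (log2 change 4.26 ± 0.97 SE, adjusted p = 0.0205). The call was lost without F1 library 1 (adjusted p = 0.0863) or F1 library 2 (adjusted p = 0.0791). Its neighbour AT3G45525, a RING/U-box zinc finger gene 476 bases away on the same strand, also had its highest value in ddm1 library 3, with 4.44, 16.4 and 8.94 CPM in F1 and 39, 59.9 and 550.1 CPM in ddm1 (log2 change 4.44 ± 1.13 SE, adjusted p = 0.0383). The call of this gene was lost without any 1 F1 library (adjusted p up to 0.13).

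The 8 TE genes that were lower in ddm1 were of several kinds. The Copia gene AT4G16870 fell by 6.42 in log2 CPM (± 0.87 SE, adjusted p = 0.00327), from 4.07, 4.19 and 11.6 CPM in F1 to 0, 0.183 and 0 CPM in ddm1, and was expressed in wild type (16.3, 10.6 and 10.7 CPM). It lies in the cluster of the disease resistance genes RPP4 and RPP5. AT4G04410, another Copia gene expressed in wild type (29.7, 21 and 25.7 CPM), had 2.22, 0.547 and 1.79 CPM in F1 and 0 counts in ddm1 (at least 8.85-fold lower, adjusted p = 0.0105). The retroelement SADHU6-1 fell by 4.69 (± 0.64 SE, adjusted p = 0.00325), from 17.38, 14.4 and 5.07 to 0.404, 0.733 and 0.217 CPM. AT4G04170 had its high value in 1 F1 library, with 205, 823 and 145 CPM in F1 and 40.4, 67.8 and 61.1 CPM in ddm1 (log2 change -2.79 ± 0.67 SE, adjusted p = 0.0325), and its call was lost without F1 library 1 or any 1 ddm1 library (adjusted p up to 0.0996). The MULE gene AT3G42806 fell by 1.92 (± 0.36 SE, adjusted p = 0.01). The other 3 were SADHU7-1 (log2 change -1.52), the CACTA gene AT4G08110 (-0.73) and AT1G58561 (-1.87). The calls of SADHU7-1 and AT4G08110 were lost without any of 4 and 6 libraries (adjusted p up to 0.089 and 0.0912).

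AT1G58561 is a Copia element within the span of AT1G58602, the NB-ARC and leucine-rich repeat gene RPP7, which gives resistance to downy mildew and whose full-length transcript depends on heterochromatin at the intronic element. The element stood at 146, 139 and 194 CPM in F1 and 65.8, 40.7 and 23.9 CPM in ddm1 (± 0.34 SE, adjusted p = 0.00899). AT1G58602 on chromosome 1 (21746354 to 21766048, plus strand) stood at 302, 211 and 337 CPM in F1, 12.8, 2.01 and 0.652 CPM in ddm1 and 461, 473 and 468 CPM in wild type. All F1 libraries lay above all ddm1 libraries and below all wild-type libraries, and the gene fell by 5.72 on the log2 scale from F1 to ddm1 (± 0.85 SE, adjusted p = 0.00453). The gene has 3 near-identical copies, whose reads may be shared, and it was named after its values were seen.

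Called TE genes and called non-TE loci differed in where wild type stood. For each locus, the wild-type mean was placed on the line from the F1 mean (0) to the ddm1 mean (1) of log2(CPM + 0.5). Of the 544 TE genes higher in ddm1, wild type lay beyond F1 (under -0.25), on the side away from ddm1, in 425 (78.1%) and near F1 in 116 (21.3%). Of all 1231 tested TE genes, it lay beyond F1 in 984 (79.9%) and near F1 in 133 (10.8%). A place beyond F1 was thus no more frequent among the called TE genes than among all tested ones. In non-TE loci the order was different. Among the 1328 higher non-TE loci, wild type was nearer to ddm1 than to F1 in 1240 (93.4%), and among the 1118 lower ones in 984 (88.0%), against 71.7% of all 16814 tested non-TE loci. Wild type lay near ddm1 in 887 of the higher and 634 of the lower loci, and there the F1 mean stood apart from both others. It lay beyond ddm1 in 225 and 122, and between F1 and ddm1 in 167 and 323. The labels do not give the hour of harvest or the growth batch, so that F1 genotype and any such difference between groups cannot be told apart.

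**Figure D3:**
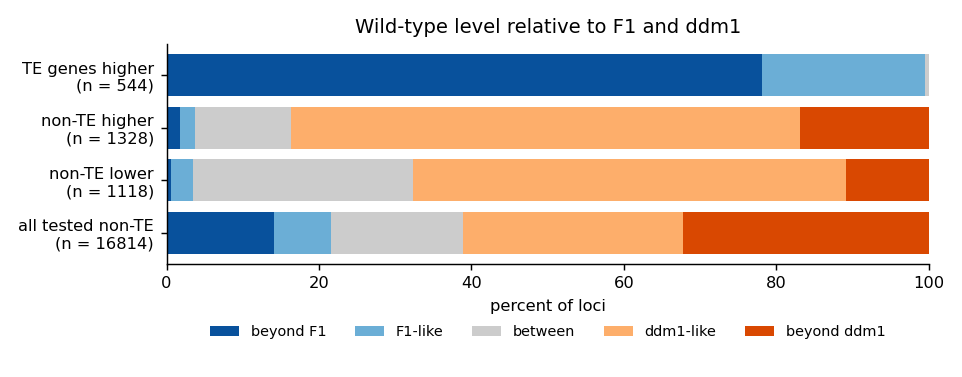
Where the wild-type mean lies between F1 (0) and ddm1 (1) on the log2(CPM + 0.5) scale, as percent of loci: beyond F1 (under -0.25), F1-like (to 0.25), between, ddm1-like (from 0.75) and beyond ddm1. Wild type lies at or beyond F1 in nearly all of the 544 higher TE genes and at or beyond ddm1 in most called non-TE loci.

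In 88 of the 2446 called non-TE loci wild type lay near F1 or beyond it on the side away from ddm1. In 24 of the higher (1.81%) and 7 of the lower loci (0.626%) it lay beyond F1, so that the F1 mean was between the other 2. Near F1 were 1.88% of the higher and 2.86% of the lower loci. Of all tested non-TE loci 14.1% lay beyond F1 and 7.58% near it, so that both classes were rarer among the calls. Of the 88, 49 were higher in ddm1, and for 25 the wild-type libraries held 0 counts. Of the 48 with a place in the annotation, 19 (39.6%) lay within 2 kb of a TE gene, against 4.17% of all tested non-TE loci, and 18 (37.5%) lay in a pericentromere, against 6.45%. Of these 19 loci, 16 had 0 counts in wild type, and they are 16 of the 24 placed loci that did. Such loci passed the filter through F1 and ddm1, so that these shares are a description and are not matched to the tested loci as a whole. Of the 38 placed loci that were lower, 3 (7.89%) lay within 2 kb of a TE gene.

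The MADS-box genes AT1G59920 and AT1G59930, which are near-identical copies of each other on chromosome 1, were among the 10 non-TE loci with the largest increase. AT1G59930 on chromosome 1 (22060924 to 22061516, minus strand) stood at 6.66, 10.8 and 11.6 CPM in F1, 785, 781 and 1779.9 CPM in ddm1 and 1.44, 0.895 and 1.9 CPM in wild type. The ddm1 libraries lay far above all others, and the gene was 115-fold higher than in F1 (log2 change 6.84 ± 0.50 SE, adjusted p = 0.000415). AT1G59920 went from 0, 0.729 and 0.447 to 48, 40.5 and 108 CPM (log2 change 7.29 ± 0.91 SE, adjusted p = 0.00273). Reads of the pair may be shared, so that their single values are uncertain. Their distances to the nearest TE gene were 40902 and 39228 bases.

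Other loci of this kind, named after their values were seen, were close to TE genes. The myosin heavy chain-like gene AT5G38190, 649 bases from a TE gene, had 0 counts in wild type, 8.69, 10.03 and 13.9 CPM in F1 and 92.7, 64.8 and 55.7 CPM in ddm1 (log2 change 2.71 ± 0.31 SE, adjusted p = 0.00325). The values lay in the order wild type, F1, ddm1, without overlap between genotypes. Its relatives by annotation, AT1G32010 (log2 change 2.67 ± 0.58 SE, adjusted p = 0.0239) and AT4G06688 (3.02 ± 0.75 SE, adjusted p = 0.0349), were also at 0 counts in wild type, and their calls were lost without any of 3 and 4 libraries (adjusted p up to 0.0834 and 0.132). The Ulp1 protease family gene AT2G10260 (Ulp1 proteases cleave SUMO) stood at 10.2, 1.82 and 9.54 CPM in F1 and 49.4, 36.6 and 43.7 CPM in ddm1 (log2 change 2.58 ± 0.56 SE, adjusted p = 0.0238), a difference no longer called without any of 3 libraries (adjusted p up to 0.0697). The uncharacterized AT4G06718, 1260 bases from a TE gene, stood at 34.8, 23.7 and 56.2 CPM in F1 and 417, 377 and 659 CPM in ddm1, and was 12.7-fold higher (± 0.43 SE, adjusted p = 0.00217).

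Genes lower in ddm1 than in both other genotypes included MES16, a methyl esterase that acts in chlorophyll breakdown. It stood at 69.7, 121 and 23.3 CPM in F1, 3.77, 7.88 and 5.87 CPM in ddm1 and 67, 40.1 and 52.2 CPM in wild type, and fell by 3.62 between F1 and ddm1 (± 0.58 SE, adjusted p = 0.00581). AT5G24240, a phosphatidylinositol 4-kinase gamma-like gene, fell by 3.46 (± 0.33 SE, adjusted p = 0.00106), from 70.8, 120.1 and 73 to 11, 6.96 and 5.65 CPM. The tonoplast aquaporin TIP2 (AT3G26520) fell by 3.31 (± 0.47 SE, adjusted p = 0.00372), from 445, 581 and 294 to 32.3, 25.8 and 74.8 CPM, against 196, 329 and 248 CPM in wild type. The groups did not overlap in any of these genes, and none of the calls was lost when 1 library was left out.

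Of 16 listed loci known from earlier work to be silenced by DNA methylation, 9 could be tested and 2 were higher in ddm1 (7.9% of all tested non-TE loci were), with a list median of 0.65 on the log2 scale against -0.04 for all tested non-TE loci. APOLO (AT2G34655), a noncoding RNA that acts on auxin genes, was 1.94-fold higher, with 96.1, 152 and 140.3 CPM in F1 and 238, 262 and 252 CPM in ddm1 (log2 change 0.95 ± 0.23 SE, adjusted p = 0.0238). Its groups did not overlap, and without any of 4 libraries it was not called (adjusted p up to 0.098). SDC, an F-box gene silenced through its promoter repeats, stood at 0.74, 2.55 and 0.745 CPM in F1 and 4.71, 11.9 and 47.6 CPM in ddm1 (log2 change 3.98 ± 1.07 SE, adjusted p = 0.0351). The 3 ddm1 values of SDC spread widely, and its call was lost without any of 5 libraries (adjusted p up to 0.142). FWA, a homeobox gene silent in adult wild-type plants, was too scarce to test, with 29, 2 and 19 counts in ddm1 and 0 in F1. The resistance gene SNC1, which has near-identical copies, stood at 454, 453 and 586 CPM in F1 and 764, 716 and 541 CPM in ddm1 and was not called (adjusted p = 0.242).

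In the lists of maintenance methylation and RNA-directed DNA methylation the calls were no more frequent than the 14.5% of all tested non-TE loci. In the maintenance methylation list, 1 of 7 tested genes passed the test, the chromomethylase CMT3, which methylates CHG sites, with 0.74, 2.55 and 1.49 CPM in F1 and 5.25, 7.69 and 14.6 CPM in ddm1 (log2 change 2.5 ± 0.69 SE, adjusted p = 0.0392). Among RNA-directed DNA methylation genes 1 of 16 passed, the Argonaute AGO4, with 7.58, 6.75 and 14.8 and 22.1, 26.7 and 41.3 CPM (log2 change 1.62 ± 0.39 SE, adjusted p = 0.0236). The CMT3 call was lost without any 1 library of F1 or ddm1 (adjusted p up to 0.133), and the AGO4 call without any of 4 libraries (adjusted p up to 0.0936). The list medians were 1.12 and 0.38, and the methyltransferase MET1 (log2 change 1.27, adjusted p = 0.21) and CMT2 (1.65, adjusted p = 0.119) were not called. DESeq2 called 2 of 7 and 4 of 16, CMT2 among them. It called more loci in all, with 2157 higher and 1621 lower of 16814 tested non-TE loci, so that its counts cannot be set against the 14.5%.

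Linker histone genes H1.1 and H1.2 were lower in ddm1. Of 18 tested genes in the list of other chromatin silencing factors, 3 fell, and all 3 encode histones. Of all tested non-TE loci 14.5% were called in either direction and 6.65% lower, so that the count is no result about the list. H1.1 stood at 131, 132 and 86 CPM in F1 and 31.1, 30.2 and 27.2 CPM in ddm1 and fell by 1.98 in log2 units (± 0.22 SE, adjusted p = 0.00179). H1.2 stood at 178, 169 and 122 and 48, 45.4 and 25.4 CPM and fell by 1.98 (± 0.29 SE, adjusted p = 0.00439). In both genes the groups were far apart and wild type was at the ddm1 level (26.2, 31.8 and 33.3 and 34.2, 50.9 and 45.3 CPM). The heterochromatic histone variant gene HTA7 fell by 0.90 (± 0.26 SE, adjusted p = 0.0433) and was not called without any of 7 libraries (adjusted p up to 0.137). H1.3, a stress-induced linker histone, had a log2 fold change of -2.25 that was not called (adjusted p = 0.0572).

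The circadian clock list had the highest share of called members of the lists with 10 or more tested genes. Of 22 tested members, 5 were higher in ddm1 and 10 were lower, 68.2% of the list against 14.5% of all tested non-TE loci. The morning gene LHY, a MYB factor, stood at 2.03, 4.19 and 2.53 CPM in F1 and 231, 171 and 211 CPM in ddm1, and was 69.9-fold higher (log2 change 6.12 ± 0.32 SE, adjusted p = 6.71e-05). Its partner CCA1 stood at 10.5, 12.4 and 12.1 and 96.1, 96.2 and 105 CPM (log2 change 3.08 ± 0.20 SE, adjusted p = 0.00019). The groups were wide apart in both, and wild type was at 282, 284 and 318 CPM for LHY and 149.7, 205 and 175 CPM for CCA1. The coactivator genes LNK1 and LNK2 (log2 fold changes 1.86 and 3.02) and RVE8, a MYB factor that activates evening genes (1.96), were higher too.

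Evening genes were lower in ddm1. TOC1, the pseudo-response regulator that represses CCA1 and LHY, stood at 327, 343 and 264 CPM in F1 and 11, 14.8 and 14.6 CPM in ddm1, and fell by 4.53 in log2 units (± 0.25 SE, adjusted p = 6.71e-05). FKF1, a blue light receptor of the flowering pathway, stood at 39, 61.1 and 44.3 CPM in F1 and had 0 counts in all ddm1 and all wild-type libraries, so that it was at least 281-fold lower in ddm1 (adjusted p = 0.00149). FKF1 and AT1G17665 were the 2 non-TE loci with the largest fitted decrease. COR27 and COR28 encode small repressors of the clock and of cold tolerance. COR27 fell by 6.42 (± 0.40 SE, adjusted p = 0.000157), and COR28 fell by 6.82 (± 0.68 SE, adjusted p = 0.00246). COR27 stood at 55.8, 72.9 and 40.8 CPM in F1 and 0.404, 0.733 and 0.87 CPM in ddm1.

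The members of the evening complex fell together: LUX by 5.53 (± 0.80 SE, adjusted p = 0.00417), ELF4 by 3.98 (± 0.94 SE, adjusted p = 0.0231) and ELF3 by 2.56 (± 0.32 SE, adjusted p = 0.00251). LUX stood at 55.5, 80.8 and 55.6 CPM in F1 and 0.269, 0.916 and 3.26 CPM in ddm1. BOA, its close relative, fell by 4.14, PRR5 by 4.86 and GI, a scaffold protein of the evening, by 2.48. PRR7 (log2 change -0.11), PRR9 (0.54) and ZTL (-0.08) were not called (adjusted p of 0.453 to 0.802). Wild type was nearer to ddm1 than to F1 in 21 of the 22 clock genes. Many named genes overlap a gene on the other strand, and reads of such pairs may not have been told apart. Among them are FKF1, LUX, BOA, ELF3, LNK1 and LNK2, and SDC, H1.1 and H1.2 described above. Of the genes described below, they include CHS, F3H, RCA, DIN4, DIN6, DIN10, JAZ10, IMD1, UGT74C1, SCPL10, UMAMIT33, CDF5, SPL5 and APR1. The number of called members was 14 or 15 whichever library was left out, and the ELF4 call was the 1 that was lost (without F1 library 1, F1 library 2 or ddm1 library 1, adjusted p up to 0.0747).

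**Figure D4:**
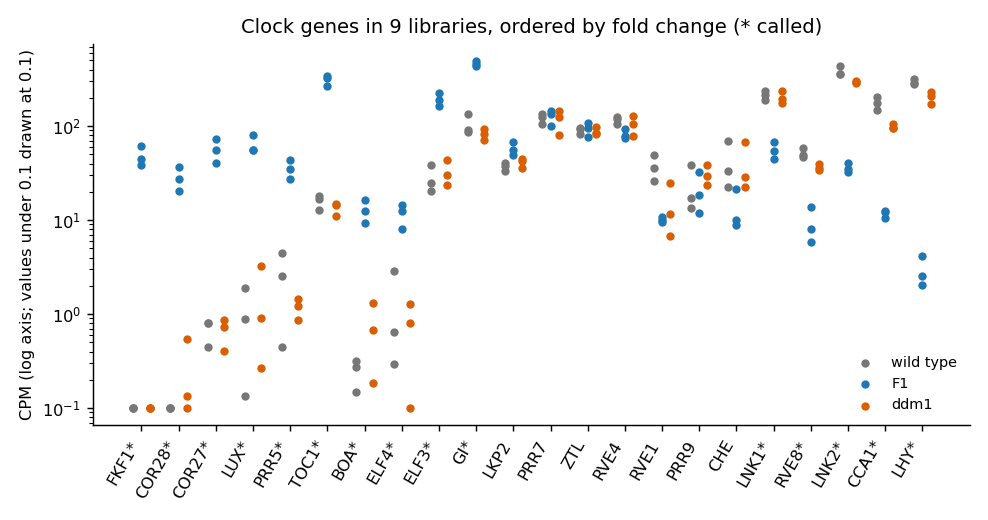
CPM of the 22 clock genes in the 3 wild-type (grey), 3 F1 (blue) and 3 ddm1 (orange) libraries on a log axis, ordered from the most negative to the most positive log2 fold change of ddm1 over F1, with called genes starred and values under 0.1 drawn at 0.1. Wild-type and ddm1 points lie close together, while F1 points are far higher at the left end (FKF1, TOC1) and far lower at the right end (CCA1, LHY).

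The evening element shown in the 2 promoters above was present in 489 of 16385 tested protein-coding non-TE loci (2.98%). It was present in 37 of 1306 loci higher in ddm1 (2.83%) and in 70 of 1093 loci lower in ddm1 (6.40%). Of the 10 clock genes that fell, 6 held it, FKF1 and TOC1 among them, and none of the 5 that rose did. A match says that these letters are in the window, and no more.

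Nuclear genes for the photosynthetic apparatus were higher in ddm1. In the light harvesting antenna list, whose proteins hold most of the chlorophyll of the leaf, 12 of 20 tested members were higher (7.9% of all tested non-TE loci were) and the median log2 fold change was 1.83 against -0.04 for all tested non-TE loci. LHCB2.1 stood at 75.1, 115 and 173 CPM in F1 and 2169, 2804 and 6196 CPM in ddm1, and was 30.7-fold higher (log2 change 4.94 ± 0.56 SE, adjusted p = 0.00192). LHCB2.2 was 30.1-fold higher (± 0.76 SE, adjusted p = 0.00513). LHCB1.1, whose reads may be shared with its near-identical copy LHCB1.2, stood at 59, 76.6 and 97 and 1482, 1875 and 7419 CPM (log2 change 5.53 ± 0.76 SE, adjusted p = 0.00331). In each of these genes every ddm1 library lay above every F1 library, and library 3 was the highest of the ddm1 libraries. Among members that were not called were LHCB1.3 (0.78, adjusted p = 0.394) and LHCB1.5 (0.77, adjusted p = 0.139).

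The list of photosystem, electron transport and carbon fixation genes had 12 of 19 tested members higher, with a median of 1.77. PSBS, which dissipates excess light energy, stood at 96.1, 72.7 and 180.2 CPM in F1 and 1248, 813 and 1946 CPM in ddm1, and was 11.5-fold higher (log2 change 3.52 ± 0.53 SE, adjusted p = 0.00482). The rubisco activase gene RCA stood at 2762, 3314 and 3435 CPM in F1 and 14754, 12547 and 16542 CPM in ddm1 (log2 change 2.2 ± 0.30 SE, adjusted p = 0.00318). PSAK, a photosystem I subunit, rose by 2.82 and the rubisco small subunit genes RBCS2B and RBCS3B by 2.66 and 2.77. Wild type was nearer to ddm1 in all 39 tested genes of the 2 lists. Without F1 library 1 the called members fell to 5 in the antenna list and 2 in the photosystem list, without F1 library 2 to 6 and 2, and without ddm1 library 3 to 11 and 7.

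Of 11 tested starch genes, 4 were higher in ddm1 (against 7.9% of all tested non-TE loci), with a median of 0.71. GBSS1, the granule-bound starch synthase that makes amylose, stood at 7.77, 17.3 and 6.26 CPM in F1 and 613, 594 and 411 CPM in ddm1, and was 51.6-fold higher (log2 change 5.69 ± 0.46 SE, adjusted p = 0.00058). The cytosolic enzyme DPE2, which uses the maltose of starch breakdown, stood at 87.5, 93.5 and 116 and 438, 400.4 and 255 CPM (± 0.26 SE, adjusted p = 0.00327). APL3, a large subunit of ADP-glucose pyrophosphorylase, rose by 2.0 (± 0.40 SE, adjusted p = 0.0129) and the glucan phosphatase SEX4 by 1.78 (± 0.51 SE, adjusted p = 0.043). Without F1 library 1 the count was 2, and without F1 library 3 it was 6.

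Genes induced by darkness or in ageing leaves were lower in ddm1. Of 11 tested members 7 fell (6.65% of all tested non-TE loci did) and the median was -2.31. DIN1, a rhodanese-like gene whose transcript accumulates in the dark, stood at 1943, 1758 and 372 CPM in F1 and 13.1, 34.1 and 9.35 CPM in ddm1, and fell by 6.17 in log2 units (± 0.94 SE, adjusted p = 0.00491). DIN10, a raffinose synthase family gene, fell by 3.83 (± 0.63 SE, adjusted p = 0.00668), from 1960.4, 1431 and 450.1 to 47.2, 81.5 and 142 CPM. In both genes F1 library 3 was well below the other F1 libraries, though above every ddm1 library. The asparagine synthetase gene DIN6 fell by 5.69 (± 1.24 SE, adjusted p = 0.0175) and DIN4, of branched-chain amino acid breakdown, by 2.65 (± 0.48 SE, adjusted p = 0.00899). NYC1 and PAO, enzymes of chlorophyll breakdown, fell by 2.76 and 1.44, and the senescence regulator ORE1 by 2.31. The summed level of the list was 6081, 5498 and 1649.5 CPM in F1 and 545, 563 and 443 CPM in ddm1, against 747, 499.5 and 919.9 CPM in wild type. Without F1 library 1 the count of called members was 4.

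**Figure D5:**
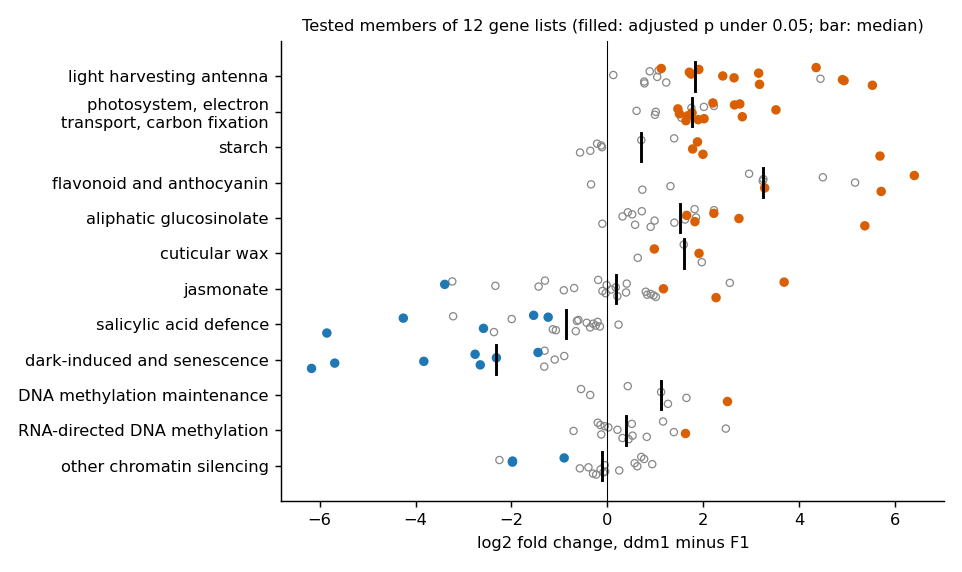
Log2 fold change of ddm1 over F1 for the tested members of 12 gene lists (filled points, adjusted p under 0.05, orange higher and blue lower; open points, not called; bars, medians). Antenna and photosystem genes lie to the right (medians 1.83 and 1.77), and dark-induced and senescence genes to the left (median -2.31). The median is 1.12 for DNA methylation maintenance, 0.38 for RNA-directed DNA methylation and -0.11 for other chromatin silencing genes.

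Of 11 tested flavonoid and anthocyanin genes, 3 rose (against 7.9% of all tested non-TE loci) and the median was 3.26. Chalcone synthase (CHS), the entry enzyme of the pathway, stood at 1.11, 0.729 and 2.09 CPM in F1 and 123, 35.7 and 55.4 CPM in ddm1, and was 54.5-fold higher (log2 change 5.72 ± 0.60 SE, adjusted p = 0.00147). Flavanone 3-hydroxylase (F3H) rose by 3.28 (± 0.61 SE, adjusted p = 0.00981) and the MYB activator PAP1 by 6.41 (± 1.03 SE, adjusted p = 0.00612). Late anthocyanin genes stood higher in ddm1 library 1 than in the other ddm1 libraries, with 68.2, 3.48 and 0.652 CPM of UGT75C1 and 34.6, 0.916 and 0 CPM of DFR, and UGT75C1 was not called (adjusted p = 0.183).

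Of 18 tested aliphatic glucosinolate genes, which make defence compounds from methionine, 5 were higher (against 7.9% of all tested non-TE loci), with a median of 1.51. The regulator MYB29 stood at 0, 0 and 0.745 CPM in F1 and 10.5, 5.68 and 20.9 CPM in ddm1 (log2 change 5.37 ± 0.86 SE, adjusted p = 0.00583). The glucosyltransferase UGT74C1 rose by 2.22 (± 0.43 SE, adjusted p = 0.0112), IMD1 and BCAT3 of chain elongation by 2.75 and 1.83, and CYP83A1 of core synthesis by 1.66. The summed level was 395, 854 and 428 CPM in F1 and 624, 1109 and 2463 CPM in ddm1. Library 3 of ddm1 was far above the other ddm1 and F1 libraries, and F1 library 2 overlapped the ddm1 range. Wild type stood at 3629, 2062 and 3593 CPM, above every F1 library, and only its library 2 lay below ddm1 library 3. Without F1 library 1 the count of called members was 1, and without ddm1 library 2 or ddm1 library 3 it was 3.

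Of 20 tested salicylic acid defence genes, 5 fell (6.65% of all tested non-TE loci did) and the median was -0.86. The marker gene PR1 stood at 42.2, 10.9 and 34 CPM in F1 and 0.135, 0.183 and 1.3 CPM in ddm1, and fell by 5.85 in log2 units (± 0.90 SE, adjusted p = 0.00491). It was also near 0 in wild type (0.479, 0.149 and 0 CPM). PBS3, of salicylic acid synthesis, fell by 2.58 (± 0.59 SE, adjusted p = 0.0202), ALD1, of pipecolic acid synthesis, by 4.26, the salicylic acid hydroxylase DMR6 by 1.54 and AED1 by 1.23. The synthesis gene ICS1 (log2 change -1.07, adjusted p = 0.0689) and PR2 (-2.36, adjusted p = 0.0796) were not called. The count was 1 without F1 library 1 or ddm1 library 2, 2 without ddm1 library 1 or ddm1 library 3, and 3 without F1 library 3, and the PR1 call was kept in each of these fits.

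Of 25 tested jasmonate genes, 3 were higher and 1 was lower, with a median of 0.18, a share of calls near the 14.5% of all tested non-TE loci. LOX2, a chloroplast lipoxygenase of jasmonate synthesis, stood at 129.6, 161 and 430.4 CPM in F1 and 1707, 562 and 1212 CPM in ddm1 (log2 change 2.27 ± 0.61 SE, adjusted p = 0.036). The methyltransferase JMT rose by 3.69 (± 1.03 SE, adjusted p = 0.0406) and the repressor JAZ3 by 1.17 (± 0.23 SE, adjusted p = 0.0111), while the repressor JAZ10 fell by 3.39 (± 0.93 SE, adjusted p = 0.0372). No member was called without F1 library 1, 1 was called without F1 library 2, ddm1 library 1 or ddm1 library 3, and each of the 4 calls was lost without 1 or more libraries.

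The remaining non-TE loci with the largest fitted increase had few or no F1 counts. Those at 0 in all F1 libraries were AT5G15948 (8.34, 28.6 and 49.8 CPM in ddm1, at least 169.6-fold), the glucomannan synthase gene CSLA01 (35, 3.66 and 35.2 CPM, at least 144-fold), the serine carboxypeptidase-like gene SCPL10 (10.5, 2.56 and 21.5 CPM, at least 67.6-fold), the hydrolase gene AT2G26750 (12.9, 9.34 and 5.87 CPM, at least 55-fold) and TRM11 (7.94, 4.58 and 8.48 CPM, at least 41.1-fold). LpxC1, of lipid A synthesis, had 0, 1 and 0 counts in F1 and 23.4, 33.7 and 0.435 CPM in ddm1 and has 3 near-identical copies. The nudix hydrolase NUDT24 (126, 44.9 and 3.48 CPM) and the phosphoenolpyruvate transporter PPT2 (18, 10.6 and 63.5 CPM) completed the set. Wild type had 5, 8 and 0 counts of AT2G26750 and 18 or more counts of each of the other loci in every library. The calls of LpxC1 and NUDT24 were lost without F1 library 1 or F1 library 2 (adjusted p up to 0.0598), and that of CSLA01 without any of 6 libraries (adjusted p up to 0.0969).

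Those with the largest fitted decrease, next to the clock genes, were mostly present in F1 alone or highest there. AT1G17665, annotated as a CA-responsive protein, had 57.1, 35 and 39.95 CPM in F1 and 0 counts in ddm1 (at least 257-fold lower, adjusted p = 0.0021). The glyoxalase gene GLYI4 fell by 7.45 (± 1.33 SE, adjusted p = 0.00882), from 101, 48.7 and 13.9 to 0, 0.916 and 0 CPM, and the methyltransferase gene CCOAMT by 7.23 (± 1.1 SE, adjusted p = 0.00491). The CCT motif gene AT1G07050, with 4.44, 4.92 and 16.7 CPM in F1, fell by 6.85 (± 1.1 SE, adjusted p = 0.00925). The ethylene response factor gene Rap2.6L and the defensin-like gene PDF1.4 had 0 counts in ddm1 and were at least 57.9-fold and 47.7-fold lower. The pectin methylesterase inhibitor gene AT1G62760 and the transporter gene UMAMIT33 fell by 7.53 and 7.14. The calls of these last 4 were each lost without any of 3 to 5 libraries (adjusted p up to 0.0955).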

How the data were processed

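RNA was measured in leaves of 9 libraries, 3 per genotype. Ribosomal RNA was depleted, and directional libraries were read as single 50 bp ends, per the labels' protocols. The authors deposited estimated counts and TPM for each locus, and the submitters' processing notes name kallisto 0.46.0. No source used here gives its strand and fragment settings or its index, so that reads of antisense, overlapping or near-identical loci may be misassigned. The deposited TPM values served only to count TE genes at or above 1.

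Estimated counts were rounded. Organelle loci were removed before library sizes were computed, leaving 5212771 to 7574806 nuclear counts per library. edgeR 4.0.16 (R 4.3.3) gave quasi-likelihood F tests with TMM scaling, robust dispersions and filterByExpr. All 9 libraries were fitted by group, and p-values were adjusted by Benjamini-Hochberg over 18045 loci. Standard errors come from the F statistic. glmTreat tested a 2-fold threshold. Adjusted p-values are from this fit. Data were simulated for this comparison with 200 changed loci among 18045, split evenly between 2-fold and 4-fold changes. There edgeR recovered 55 of the 4-fold and 2 of the 2-fold changes, with 1 false call, so that most 2-fold changes were missed. Far more loci were called in the real data (2998), so that these rates need not carry over. No pair of replicate libraries agreed within sampling noise (chi-square per locus of 12.5 or more). Floors (3 counts over a group) cover counting error only.

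TE genes were the 3881 loci annotated in RefSeq TAIR10.1 as pseudogenes with an mRNA model and an uncharacterized product. Of 33602 loci, 32835 matched that annotation. Superfamilies came from tblastx (BLAST 2.17.0, E value under 1e-10) to 254 seeds named in the annotation or carrying a reverse transcriptase motif. When each seed was left out in turn, 230 of the 241 that matched another seed fell to their own superfamily. The method placed 2672 TE genes (68.8%). CACTA had only 9 seeds, of which 4 matched another seed, so that its assignment was hardly checked. This method was chosen after the data were seen.

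The groups, the 30 gene lists and the naming rule were chosen with earlier results of these data known. Among called loci with a mean of at least 3 CPM, the rule named the 8 TE genes with the largest and up to 4 with the most negative fold change and 10 non-TE loci in each direction. It also named the 4 TE genes highest in ddm1, called list members, DDM1 and up to 3 members of lists without a call. List members that were not called, and other loci, were named beside them after their values were seen. Alternatives were RLE scaling, no filter, DESeq2 1.42.0, 6 libraries alone, organelle loci included, a replicate block and each library left out.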

Additional observations from a re-analysis of the deposited data

How the results depend on the processing

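RLE scaling, no filter on low counts, 6 libraries alone and inclusion of organelle loci left every count of calls within 1.5 times that reported, and none of the 142 named calls changed direction under any alternative. RLE moved the median log2 fold change of non-TE loci from -0.04 to 0.01, and the share of higher among non-TE calls from 54.3% to 60%. DESeq2 called 13 lower TE genes and 2157 higher non-TE loci, and in the simulation it made 38 false calls where edgeR made 1. With 1 library of any genotype left out, counts ranged from 261 to 584 for higher and 5 to 9 for lower TE genes, 434 to 1587 for higher and 258 to 1406 for lower non-TE loci, 67 to 276 for TE genes over 2-fold higher, and 37 to 97 for list members (87 reported). The filter and the smaller groups changed in these fits. Of the 142 named calls, 71 were kept whichever library was left out, wild type included. Leaving out wild-type libraries and leaving out both libraries 3 were chosen after the data were seen. Without both libraries 3, 124 named calls were kept, and 2353 of the 2998 calls were shared with the 3303 called then.

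The labels number the replicates alike, and whether the numbers pair the samples was not settled. Same-numbered F1 and ddm1 libraries had correlated deviations of 0.0584, 0.204 and 0.204, and differently numbered ones of -0.194 to 0.0925. Libraries 2 and 3 of ddm1 correlated best with the F1 library of their own number, whereas ddm1 library 1 correlated best with F1 library 2 (0.0925). With a replicate block, 315 higher TE genes, 663 higher and 396 lower non-TE loci, 80 TE genes over 2-fold higher and 56 list members were called.

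The ratio of TE gene shares was 3.15 with all counts as denominator and 2.64 to 2.83 with 1 library left out. The ratio of TE gene numbers was 2.41 at a TPM minimum of 5 and 1.77 to 1.995 with 1 library left out. The cause of these changes was not tested. Depth limits the 2650 untested TE genes, and copies, unknown harvest times and 3 libraries per genotype limit the rest.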

Other observations

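Lists of nutrition and of the leaf surface held a few calls. Of all tested non-TE loci 14.5% were called, and the counts of the nitrate and sulfur lists below are at or under that share. Among iron genes 3 of 8 tested were called. The ferritin gene FER1 fell by 2.57 (± 0.55 SE, adjusted p = 0.0166) on the log2 scale and FER4 fell by 2.04 (± 0.48 SE, adjusted p = 0.0226), and the phloem transporter OPT3 rose by 1.42 (± 0.30 SE, adjusted p = 0.0151). FER1, which stores iron in plastids, stood at 417, 350.4 and 76.3 CPM in F1 and 49.3, 33.3 and 59.8 CPM in ddm1, with F1 library 3 near the ddm1 range. Of 6 tested phosphate starvation genes, the acid phosphatase gene PAP17 fell by 3.73 (± 0.81 SE, adjusted p = 0.0175) and the sulfolipid synthase gene SQD2 rose by 1.12 (± 0.18 SE, adjusted p = 0.00595). Among wax genes 2 of 5 rose, CER3 by 1.91 (± 0.29 SE, adjusted p = 0.00458) and CER6 by 0.98 (± 0.28 SE, adjusted p = 0.0414). The plastid glutamine synthetase gene GLN2 was the 1 call of 7 nitrate assimilation genes (log2 change 1.75 ± 0.45 SE, adjusted p = 0.0304), and the APS reductase gene APR1 the 1 call of 10 sulfur deficiency genes (1.58 ± 0.40 SE, adjusted p = 0.0286). APR1 stood at 18.3, 31 and 20.4 CPM in F1 and 41.2, 51.6 and 116 CPM in ddm1, both far below wild type (425, 409 and 322 CPM). Of these calls, SQD2 and CER3 were kept whichever library was left out. The others were lost without F1 library 1 and F1 library 2, among others (adjusted p up to 0.154).

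In the flowering time list 3 of 19 tested genes were higher and 1 was lower (7.9% and 6.65% of all tested non-TE loci were). The Dof factors CDF1 and CDF3, which repress CONSTANS, rose by 2.47 (± 0.50 SE, adjusted p = 0.0134) and 1.37 (± 0.27 SE, adjusted p = 0.0123), and CDF5 fell by 1.99 (± 0.48 SE, adjusted p = 0.0251). SPL5, a factor of the ageing pathway, stood at 4.25, 5.1 and 4.77 CPM in F1 and 19.5, 18.9 and 22.2 CPM in ddm1 (log2 change 2.09 ± 0.41 SE, adjusted p = 0.0118). Without F1 library 1, CDF1 alone of these 4 stayed called, and CDF5 was also lost without F1 library 2 or any 1 ddm1 library (adjusted p up to 0.0882).

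In 11 lists with 74 tested members edgeR called none, against 14.5% of all tested non-TE loci. The lists were post-transcriptional silencing, DNA demethylases, DNA damage response, indole glucosinolate and camalexin, and light signalling. The rest were heat shock, cold and drought, rapid stress response and the root, flower and seed markers. Of their members, 16 had an unadjusted p under 0.05, for which no share over all loci is given. DESeq2 called 9 of them, beside 2157 higher and 1621 lower of 16814 tested non-TE loci. AGO1, the main Argonaute of microRNAs, stood at 119, 131 and 107 CPM in F1 and 151, 149 and 202 CPM in ddm1 (adjusted p = 0.121). The demethylase gene ROS1 stood at 77.5, 71.5 and 115 and 122, 110.2 and 73.3 CPM (adjusted p = 0.627), and SOG1, the regulator of the DNA damage response, at 13.7, 23.5 and 18.5 and 9.15, 11 and 6.09 CPM (adjusted p = 0.0509). The heat shock factor gene HSFA2 had 29.1, 3.48 and 2.39 CPM in ddm1, with library 1 far above the others (adjusted p = 0.0623). The rapid stress genes were lowest in ddm1 library 3, with 923, 1144 and 93.3 CPM of SZF1 in ddm1 and 475, 1034 and 717 CPM in F1.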
